A study of Mus musculus with 6 samples.

Results

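The elements described here are the open chromatin peaks that lie far out in the gene deserts of the mouse genome, in natural killer (NK) cells. They were taken from the consensus peak set of an ATAC-seq experiment, an assay in which a transposase cuts and tags accessible DNA, as the peaks whose genomic class was intergenic and whose distance to the nearest transcription start site exceeded 200 kb in either direction. The rule used the position of a peak and none of its values. It kept 1115 of 51775 peaks (2.15%), against 17482 intergenic peaks at 200 kb or less. The cells came from the spleens of C57BL6 mice and were sorted as CD3-CD5- NK1.1+ NKp46+ cells, with 50000 cells per genotype. There were 3 libraries from wildtype mice and 3 from Rroid deficient mice, in which the locus of the long noncoding RNA Rroid, a neighbour of the gene for the transcriptional regulator Id2, is affected. The labels do not give the allele or the age of the animals. They also leave it unstated whether each library is a separate animal, and the p-values therefore reflect variation among libraries that may be technical.

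Much of gene regulation in lymphocytes runs through enhancers, short stretches of open DNA that bind transcription factors and can act on a promoter over long distances through looping of the chromatin. Genes for developmental regulators often stand beside wide intervals with no other gene, and such deserts can hold many enhancers of the same gene. ATAC-seq shows that a site is open, but neither that it is an enhancer nor which gene it acts on, so each nearest gene named here is an assignment by distance.

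Values are the authors' normalized reads per peak, and 1 sequenced read was worth 0.84 to 1.33 of them, depending on the library. The reads in all peaks ranged from 39847736 to 47939665 in wildtype, and Rroid-deficient libraries 4, 5 and 6 held 27572006, 41167610 and 30762426. Libraries 4 and 6 were therefore the shallowest. The label of the cells was checked on promoters: all 6 NK cell markers listed (Ncr1, Klrb1c, Klrk1, Klrd1, Eomes and Tbx21) had a peak within 1 kb of the start site, with wildtype means of 396 to 4773 normalized reads, and 0 of 4 B cell markers had one. Of the NK cell markers, Klrb1c (3788 to 3068, limma adjusted p = 0.0312) and Tbx21 (1489 to 1171, limma adjusted p = 0.0333) were lower in Rroid-deficient cells, and the other 4 were not called. The T cell markers Cd3e, Cd3d, Cd4 and Cd8a had none, whereas Cd3g rose from 58.7 to 353 (limma adjusted p = 3.53e-08) and Cd5 from 64.5 to 130.3 (limma adjusted p = 0.0144) in Rroid-deficient cells. Of the myeloid markers, 2 of 4 genes (Cd14 and Spi1) had a promoter peak, and neither was called. Whether other cells had a part in the results below was not tested.

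The set reached into the region that stands for the genotype. On chromosome 12, next to Gm17746, which is the neighbour of Id2 in RefSeq gene order, the Rroid-deficient means of 13 adjacent peaks between 26000744 and 26079794 (mm9) were 0.35% to 6.76% of wildtype. No peak is assigned to Rroid by name, so the match of this block to the targeted locus rests on its place beside Id2. In all, 9 of the 13 lay over 200 kb from a start site. These 9 summed to 4309, 6203 and 4671 sequenced reads in wildtype libraries 1, 2 and 3, against 27, 34 and 42 in libraries 4, 5 and 6. The normalized sum came to 4537 ± 688 in wildtype, against 39.6 ± 9.79 in Rroid-deficient cells (SD, n = 3 each). Each of the 3 Rroid-deficient libraries was low here. The block was marked out by peaks with low Rroid-deficient means, so its low values follow from that choice and are no check of the labels. Missing DNA and closed chromatin cannot be told apart from these values.

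The strongest element of the block stood at chr12:26078885-26079794, 265 kb downstream of the nearest start site. It had 1175, 1724 and 1496 normalized reads in wildtype libraries 1, 2 and 3, against 7.96, 3.81 and 3.63 in libraries 4, 5 and 6 of the Rroid-deficient group (limma log2 fold change -7.95, SE 0.26, adjusted p = 6.21e-12). The next was chr12:26023371-26024613, with 649, 831 and 671 in wildtype, against 2.65, 1.90 and 7.25 in Rroid-deficient libraries. Beyond the block, the same run of peaks without a nearer gene went on for 11 more, of which 5 were called lower and 1 higher. None of these lost nearly all signal. The peak at chr12:26122887-26124235, 310 kb from the start site, had 1331, 1563 and 1353 in wildtype, against 1334, 1533 and 1284 in Rroid-deficient libraries, so the genotypes overlapped (limma adjusted p = 0.845). Between that peak and the block, chr12:26099705-26100611 was lower by a small margin, 186 ± 20.6 to 128 ± 30.5 (limma adjusted p = 0.0492), a call lost in 10 of 16 alternative analyses, among them those without wildtype library 2 or 3 or Rroid-deficient library 4 or 6. The other 4 falls and the rise lay farther out, next to 4930480M12Rik, where the log2 fold changes of the 7 peaks ran from -1.53 to 0.74.

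Across the whole set, distal intergenic peaks were more often lower than higher in Rroid-deficient NK cells. Of the 1115 peaks, 234 (21.0%) were called lower, where 12.1% of all peaks in the table were, and 130 (11.7%) were called higher, where 13.8% of all peaks were. Either call was made for 32.6% of the set and 25.8% of all peaks. The remaining 751 were not called. The median log2 fold change (Rroid deficient minus wildtype, on log2 of the value plus 1) was -0.15 in the set and -0.01 over all peaks. Calls were made at an adjusted p under 0.05 in limma, with Benjamini-Hochberg adjustment over all 51775 peaks. Without the 9 peaks of the block, 225 of 1106 (20.3%) were lower. The 3 wildtype and the 3 Rroid-deficient values did not overlap at 494 peaks (44.3%), against 40.1% of all peaks. Among called peaks, 88 (7.89% of the set) fell and 65 (5.83%) rose by more than 2-fold, against 1.92% and 5.08% of all peaks.

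**Figure D1:**
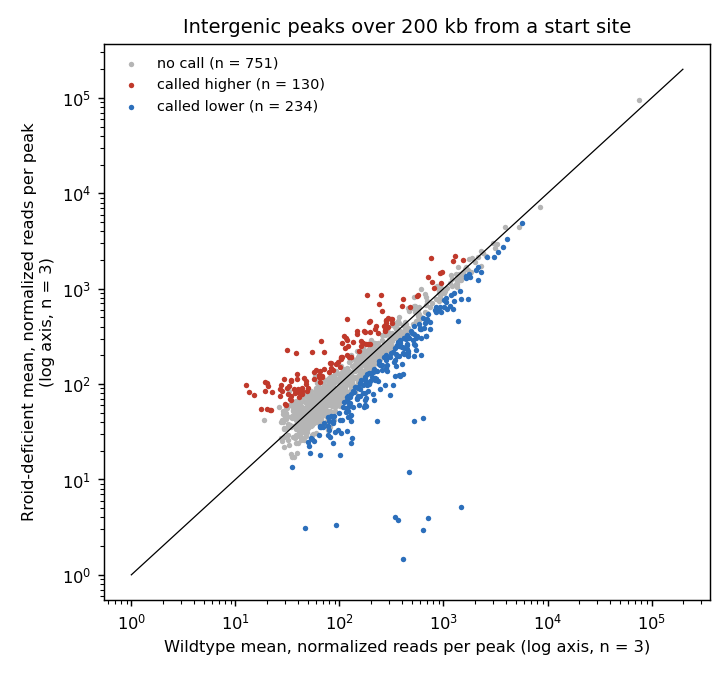
Mean normalized reads of each of the 1115 distal intergenic peaks in wildtype (x axis) and Rroid-deficient (y axis) libraries, both on log axes, n = 3 libraries each; each point is a peak, and the line marks equal values. The 234 peaks called lower lie below the line and the 130 called higher above it, and the separate group of points near the bottom is the block beside Gm17746.

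The share of falls was larger at greater distances up to the 200 kb limit and showed no further trend beyond it. Among intergenic peaks, 12.3% were lower within 50 kb of a start site, 13.6% at 50 to 100 kb and 17.9% at 100 to 200 kb. Lower calls were made for 22.0% of 578 peaks at 200 to 300 kb, 65 of 342 peaks at 300 to 500 kb and 21.5% of 195 over 500 kb. The share of rises was 14.3%, 14.8%, 15.6%, 10.6%, 11.7% and 14.9% in the same order. The 452 peaks over 200 kb from a start site that were not classed as intergenic, such as those deep in introns, had 11.7% lower and 15.0% higher calls. Within the set, peaks upstream of their nearest gene were lower at 134 of 539 (24.9%) and those downstream at 100 of 576 (17.4%). These shares are given as descriptions, since neighbouring peaks are not independent.

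Distal peaks were small, as were intergenic peaks nearer to a start site. In the set, the share of falls was above that of all peaks at small and tall peaks alike. The median wildtype value was 117 normalized reads, against 191 over all peaks and 138 at intergenic peaks up to 200 kb. The median width was 842 bp, against 964 bp over all peaks and 825 bp at those intergenic peaks. Among the peaks of the set that fell in the lower 5 deciles of mean log2 value over all peaks, 15.9% of 749 were lower, against 6.68% of all peaks of those deciles. In the upper 5 deciles 31.4% of 366 were lower, against 17.5%. Rises made up 10.7% and 13.7% of the set in these ranges, against 14.7% and 12.8% of all peaks. At the lowest peaks, falls and rises of the set were close in number: 24 and 21 in decile 1, and 19 and 18 in decile 2.

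**Figure D2:**
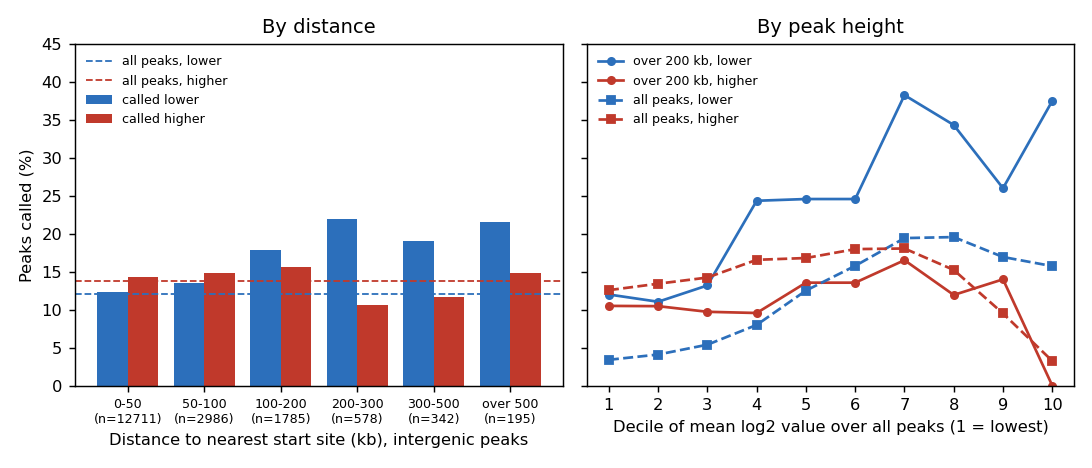
Percent of peaks called lower (blue) or higher (red) in Rroid-deficient cells. Left, bars for intergenic peaks by distance to the nearest start site, with dashed lines for all peaks; right, points by decile of mean log2 value for peaks over 200 kb (circles) and all peaks (squares). Bars for falls exceed those for rises from 100 kb outwards, and circles for falls lie above squares in all 10 deciles.

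The balance of falls over rises at these sites did not show as a shift between all libraries of the genotypes. Relative to the mean of the 6 libraries, the median peak of the set stood at a log2 value of 0.04, 0.02 and 0.19 in wildtype libraries 1, 2 and 3 and in the Rroid-deficient libraries 4, 5 and 6 at 0.07, -0.23 and -0.02. The genotypes overlapped, because library 4 lay above wildtype libraries 1 and 2 (difference in means -0.14, two-sided exact permutation p = 0.3, where the smallest possible is 0.1). Left out in turn, libraries moved the median log2 fold change between -0.20 (without library 4) and -0.06 (without library 5), and it was -0.09 without wildtype library 3. The share of lower calls ranged from 14.6% without wildtype library 3 to 22.2% without wildtype library 1. Over all peaks it was 8.90% and 11.9% in the same settings. With libraries 4 and 6 both left out, library 5 stood alone for its genotype and was assumed to vary like the wildtype libraries. In that setting 20.7% of the set and 7.06% of all peaks were lower, and 5.11% and 7.20% were higher.

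As a share of all signal in peaks, the set took 1.02%, 0.979% and 1.12% in wildtype, against 1.16%, 0.910% and 1.09% in libraries 4, 5 and 6. The genotypes overlapped and the difference in means was 0.00989 percentage points (two-sided exact permutation p = 1.0). One peak carries much of this share. Without the strongest peak the shares were 0.830%, 0.813% and 0.896% in wildtype and 0.845%, 0.730% and 0.809% in Rroid-deficient libraries, which still overlapped (exact permutation p = 0.4).

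The distal peak with the highest wildtype value was chr2:98502210-98507641, 1197 kb downstream of the nearest start site. That site belongs to Lrrc4c, which encodes a synaptic adhesion protein of neurons. The peak had 73749.95, 66836 and 88751 normalized reads in wildtype libraries 1, 2 and 3, against 113783, 70746 and 103859.9 in libraries 4, 5 and 6 of the Rroid-deficient group. Libraries 4 and 6 were above all wildtype libraries and library 5 was within the wildtype range, so that the genotypes overlapped and the peak was not called (limma adjusted p = 0.0836). This single peak held 18.7% of the wildtype signal of the 1115 peaks, and its 14071 normalized reads per kb compared with 3325 at the second. No list of regions with anomalous read mapping was applied here, and whether this value reflects open chromatin was not tested.

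Of the other 11 strongest elements, 5 were called lower and 0 higher. The second, chr1:7386857-7389430, 309 kb downstream of Pcmtd1, had 7464, 8309 and 9912 in wildtype, against 7461, 6827 and 7344 in Rroid-deficient libraries; the groups were separated by a narrow gap and the peak was not called (limma adjusted p = 0.0607). The third, chr10:95831741-95834224, lay 247 kb upstream of Btg1, an antiproliferative gene that is abundant in resting lymphocytes. It had 5635, 5819 and 5648 in wildtype, against 4656, 5279 and 4718 in Rroid-deficient libraries and fell from 5700.4 ± 103 to 4884 ± 344 (SD, n = 3 each; limma log2 fold change -0.23, SE 0.08, adjusted p = 0.0375), a call lost in 10 of 16 alternatives, including each one that left out a single library other than library 5. Its neighbour at chr10:95862461-95864143 had 3271 ± 37.8 and 2921 ± 89.5 and was not called (limma adjusted p = 0.134).

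A pair of strong elements upstream of Atp10a, which encodes a phospholipid flippase, fell clearly. The element at chr7:65653828-65655468, 259 kb from the start site, had 3281, 3655 and 4172 in wildtype, against 2784, 2539.8 and 2802 in Rroid-deficient libraries (limma log2 fold change -0.45, SE 0.09, adjusted p = 0.00183). The element at chr7:65703751-65704980, 209 kb from it, had 2800.4, 2964 and 3363 in wildtype, against 2091, 2109 and 2188 in Rroid-deficient libraries (limma log2 fold change -0.51, SE 0.09, adjusted p = 0.000377). At both, every Rroid-deficient library was below every wildtype library, and both calls held in all alternatives. The element at chr17:52301247-52302888 lay downstream of Gm20098, which neighbours the chromatin organizer gene Satb1 in RefSeq gene order. It had 3319, 3411 and 3220.3 in wildtype, against 2191, 2690.2 and 2431 in Rroid-deficient libraries (limma log2 fold change -0.45, SE 0.09, adjusted p = 0.00118). Here too every Rroid-deficient library was below every wildtype library, but the call was lost in 1 of 16 alternatives.

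Elements upstream of the zinc finger gene Rreb1 and of Amigo2, an adhesion gene, and downstream of Ets1 and of Rplp1, a ribosomal protein gene, completed the 12 strongest. Of the Rplp1 pair, chr9:61527308-61531162 had 4772, 6066 and 4969.7 in wildtype, against 4039, 5040.5 and 4271 in Rroid-deficient libraries and chr9:61513758-61519334 had 3939, 4382 and 3495 in wildtype, against 3815, 5237 and 4245 in Rroid-deficient libraries. Both pairs of groups overlapped and neither peak was called (limma adjusted p = 0.0833 and 0.285). The Rreb1 element, chr13:37711432-37714762, fell from 4122 ± 264 to 3326 ± 377 normalized reads (limma adjusted p = 0.017), a call lost in 6 of 16 alternatives, among them those without wildtype library 2 or 3 or without library 4 or 6. The Ets1 element, chr9:32733315-32734593, had 3117, 3239 and 2932 in wildtype, against 2521, 2941 and 2649 in Rroid-deficient libraries and was not called (limma adjusted p = 0.101). The Amigo2 element, chr15:97298993-97300880, stood at 2997 ± 159 and 2994 ± 231 (limma adjusted p = 0.984). In all, 5 of the 12 strongest were lower, 0 higher and 7 not called. Ranking by wildtype values favours falls, so this count is a description. Ranking by normalized reads per kb kept 8 of the 12, ranking by the mean of all 6 libraries kept 12, and ranking by the Rroid-deficient mean kept 11.

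**Figure D3:**
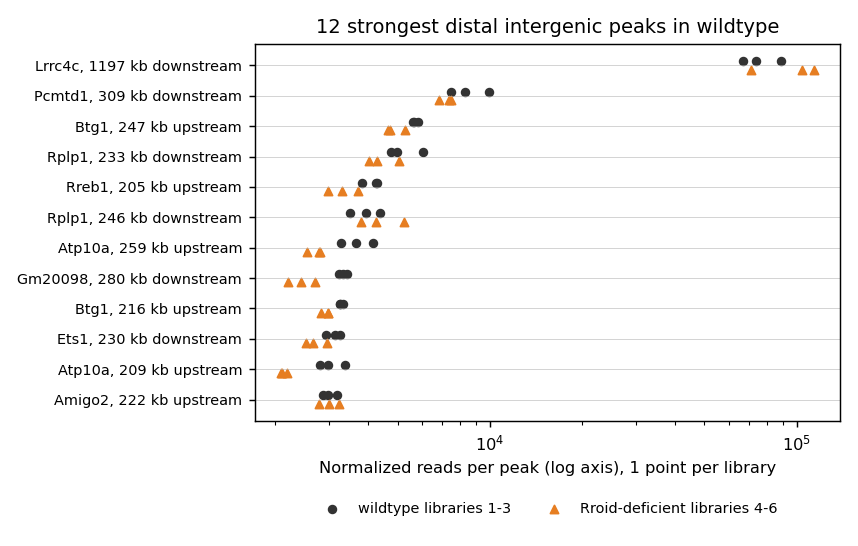
Normalized reads (log axis) in each library for the 12 distal intergenic peaks with the highest wildtype mean, named by nearest gene and distance; circles are wildtype libraries 1 to 3 and triangles Rroid-deficient libraries 4 to 6. The Lrrc4c peak stands far above the others, and at both Atp10a peaks and the Gm20098 peak all triangles lie to the left of all circles.

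The 2 largest called falls outside the block left little signal. Peaks were ranked by log2 fold change among called peaks without overlap whose mean log2 value reached the median of the set, with at most 1 peak per nearest gene. The block itself was too low in its mean to enter this ranking. The first was chr10:100428067-100428903, 373 kb downstream of 1700017N19Rik, with 662, 607 and 657 normalized reads in wildtype libraries 1, 2 and 3, against 58.3, 31.4 and 42.3 in libraries 4, 5 and 6 of the Rroid-deficient group. It fell by 14.6-fold (limma log2 fold change -3.88, SE 0.20, adjusted p = 2.08e-09).

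The second was chr9:32708686-32709534, 205 kb downstream of Ets1, which encodes a transcription factor that NK cells need to develop. It had 488, 529 and 556 in wildtype, against 58.3, 26.7 and 38.7 in Rroid-deficient libraries, 12.7-fold less (limma log2 fold change -3.70, SE 0.23, adjusted p = 1.2e-08). Every Rroid-deficient library was far below every wildtype library at this site, while the strongest Ets1 element, in the same desert, was not called. Next came chr10:95669310-95670012 downstream of Eea1, a gene for an endosome tether, which went from 304 ± 9.61 to 76.6 ± 2.19 normalized reads (limma log2 fold change -1.98, SE 0.17, adjusted p = 2.73e-07).

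Among the other falls of this ranking, the element 216 kb upstream of Cxcr4, the receptor for the chemokine CXCL12, had 516, 574 and 745 in wildtype, against 220.1, 174 and 214 in Rroid-deficient libraries (limma log2 fold change -1.58, SE 0.16, adjusted p = 1.36e-06). The element 306 kb upstream of Tgfbr2, a TGF-beta receptor subunit, had 264, 314 and 252 in wildtype, against 70.3, 101 and 119.7 in Rroid-deficient libraries (limma log2 fold change -1.53, SE 0.20, adjusted p = 2.86e-05). Elements at the Krüppel-like factor genes Klf12 (chr14:100836743-100837639, 408 ± 25.1 to 128 ± 9.87) and Klf5 (chr14:100013834-100014663, 377 ± 15.9 to 123 ± 16.0) fell by 3.17-fold and 3.06-fold (limma adjusted p = 5.35e-07 and 1.23e-06). The tallest of the 10 was chr4:83653418-83654566, 483 kb downstream of Ccdc171, which had 1284, 1387 and 1431 in wildtype, against 423, 504 and 452 in Rroid-deficient libraries (limma log2 fold change -1.57, SE 0.11, adjusted p = 3.35e-08). The Sel1l and Acvr2a elements among the 10 are taken up with their deserts. The calls at all 10 held in every alternative run.

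Ranked under the same limits on height and gene, the first rise was chr3:52282827-52283942, 211 kb downstream of Foxo1, which encodes a forkhead transcription factor that restrains NK cell maturation. It had 213, 195 and 142 normalized reads in wildtype libraries 1, 2 and 3, against 839, 881 and 869 in libraries 4, 5 and 6 of the Rroid-deficient group, 4.71-fold more (limma log2 fold change 2.25, SE 0.15, adjusted p = 2.22e-08). Every Rroid-deficient library was more than 3 times as high as every wildtype library. All 3 distal peaks at Foxo1 were higher: the tallest, chr3:52302188-52303968, had 1635, 1616 and 1371 in wildtype, against 1991, 2081 and 1882 in Rroid-deficient libraries (limma log2 fold change 0.37, SE 0.10, adjusted p = 0.00879). The call at this tallest peak was lost in 1 of 16 alternatives.

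The next rises stood upstream of Amigo2, Cblb and Klf4. Cblb encodes a ubiquitin ligase that limits lymphocyte activation, and its element at chr16:51690625-51691599 went from 118 ± 13.1 to 484 ± 57.3 (limma log2 fold change 2.02, SE 0.16, adjusted p = 1.04e-07). The element 244 kb upstream of Klf4, a Krüppel-like factor gene, had 263, 256 and 237 in wildtype, against 889.8, 828 and 868 in Rroid-deficient libraries (limma log2 fold change 1.77, SE 0.12, adjusted p = 2.44e-08). The element of Amigo2, chr15:97285852-97286572, rose from 65.8 ± 14.7 to 281 ± 27.9 (limma adjusted p = 9.85e-07), in the same desert as the uncalled element among the 12 strongest. The tallest of the 10 rises lay 201 kb downstream of Map3k7, the gene for the kinase TAK1, at chr4:32250832-32253107, with 751, 793 and 742 in wildtype, against 2012, 2170.4 and 2095 in Rroid-deficient libraries (limma log2 fold change 1.46, SE 0.09, adjusted p = 1.45e-08). The other rises were at Adgrg6, Jag1, Hs3st5, Nek10 and again Ets1, where chr9:32792367-32793108 went from 111 ± 31.8 to 317 ± 37.0. The calls at all 10 held in every alternative run.

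**Figure D4:**
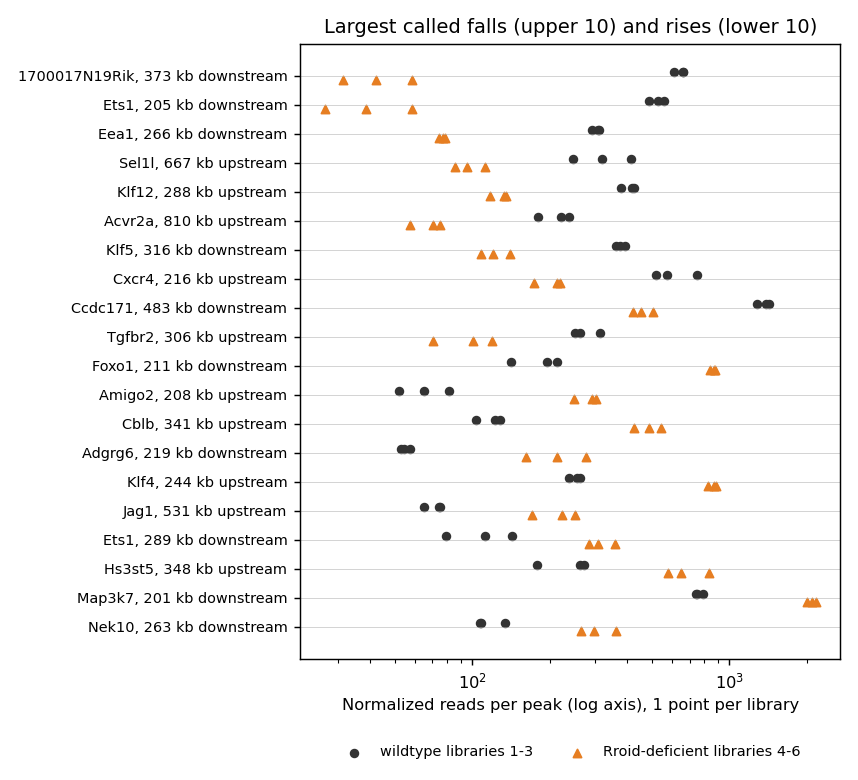
Normalized reads (log axis) in each library for the 10 largest called falls and the 10 largest called rises among the taller distal intergenic peaks, named by nearest gene and distance; circles are wildtype libraries and triangles Rroid-deficient libraries. The groups do not overlap at any of the 20 peaks, as the rule of choice requires, and Ets1 appears in both lists.

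The set formed 285 runs of peaks that follow each other in the table with no other peak between them, of which 120 were single peaks and 42 held 8 or more. Of these 42, which held 562 peaks, 21 had falls only, 10 had rises only, 9 had both and 2 had neither. In 6 of them there was a single call; of the 34 with 2 or more calls, 16 had falls only, 9 had rises only and 9 had both. Runs of nearer peaks were not compared. The 234 falls lay in 85 runs, and the 10 runs with the most falls held 102 of them. Adjacent peaks up to 10 kb apart had correlated log2 fold changes (Pearson r = 0.62 over 279 pairs, block left out, the pairs sharing all 6 libraries and some of them a peak). Both peaks were called in 50 of these pairs, and in all 50 the calls had the same direction. At 200 to 5000 kb, r was 0.20 over 186 pairs, and 12 of 17 pairs with both called went the same way.

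The run with the most falls lay between Sel1l and Mir8099-2 on chromosome 12, with 38 peaks over 1247 kb, of which 20 were lower and 0 higher. Their summed signal was 7121, 8198 and 10438 in wildtype, against 5399.9, 4422 and 5194 in Rroid-deficient libraries, or 58.3% of wildtype in the means, without overlap. Its tallest peak at Sel1l, a gene of endoplasmic reticulum protein degradation, was chr12:93910308-93911674, 823 kb upstream, with 677, 732 and 838 in wildtype, against 465, 428 and 449 in Rroid-deficient libraries (limma log2 fold change -0.74, SE 0.12, adjusted p = 0.000203). The largest fall there was chr12:93754549-93755551, from 327 ± 83.6 to 97.9 ± 13.5 (limma adjusted p = 7.45e-06).

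Between Eea1 and Btg1 on chromosome 10, 14 of 23 peaks were lower and 0 higher, and the sum fell from 24116 ± 529 to 17535 ± 876 normalized reads. This desert held the third strongest element of the whole set. Farther along the same chromosome, 9 of 11 peaks between 1700017N19Rik and Mgat4c were lower and 0 higher, with sums of 1999.9, 1898 and 2069.7 in wildtype, against 597, 249 and 534 in Rroid-deficient libraries. That is 23.1% of wildtype, and library 5 was the lowest. Chromosome 10 held 98 peaks of the set, 40 lower (40.8%) and 6 higher, while over all its peaks 14.4% were lower. Falls outnumbered rises in the set on 11 of 20 chromosomes, and rises outnumbered falls on 8. Among the 8 were chromosome 16 (11 rises, 3 falls) and chromosome X (8 rises, 1 fall). A single run, that of Cblb described below, held 7 of the 11 rises on chromosome 16. Over all peaks of chromosome 16, 11.96% were higher and 12.24% lower, and on chromosome X 6.85% and 10.43%.

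Upstream of Mef2c, which encodes a MADS box transcription factor, 12 of 18 peaks of the run that starts beside Cetn3 were lower and 0 higher, with sums of 2749.7, 2279 and 2802 in wildtype, against 1615, 1231 and 1482 in Rroid-deficient libraries (55.3% of wildtype). Its tallest, chr13:83139846-83140676, went from 442 ± 38.5 to 235 ± 12.8 (limma log2 fold change -0.90, SE 0.14, adjusted p = 0.000102). Upstream of Acvr2a, an activin receptor gene, 8 of its 16 peaks were lower and 0 higher, while the whole run, which reaches 1700019E08Rik, held 21 peaks with 8 lower and 3 higher. The tallest at Acvr2a, chr2:48323405-48325318, had 991, 1111 and 1349 in wildtype, against 688, 585 and 695 in Rroid-deficient libraries (limma log2 fold change -0.80, SE 0.12, adjusted p = 0.000127). The peak close to it, chr2:48328406-48329304, was also called lower, in all settings run. A more distant Acvr2a peak, chr2:48177422-48178358, was not called and overlapped (769 and 702, limma adjusted p = 0.423), so the calls did not cover every peak of this desert.

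Runs with rises only were fewer than runs with falls only. At Cblb, 7 of 8 peaks were higher and 0 lower, and the sum of their run of 9 was 171.5% of wildtype (2197, 2500.3 and 2539 in wildtype, against 4326, 3845 and 4239.99 in Rroid-deficient libraries). Between 4930428G15Rik and Gadl1 on chromosome 9, 6 of 11 were higher and 0 lower. The 5 peaks of the run at Cntn5, a neuronal adhesion gene, were all higher, from a low base, with log2 fold changes up to 2.86, above that of the Foxo1 peak: their sums were 118, 147 and 138 in wildtype, against 716, 708 and 683 in Rroid-deficient libraries. Both directions met in 1 desert at Ets1 (21 peaks, 2 lower, 3 higher) and between Ccdc171 and Bnc2 (20 peaks, 6 lower, 3 higher). The Ets1 sums overlapped, at 14245, 15348 and 14060.3 in wildtype, against 12444, 14349 and 13312 in Rroid-deficient libraries.

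**Figure D5:**
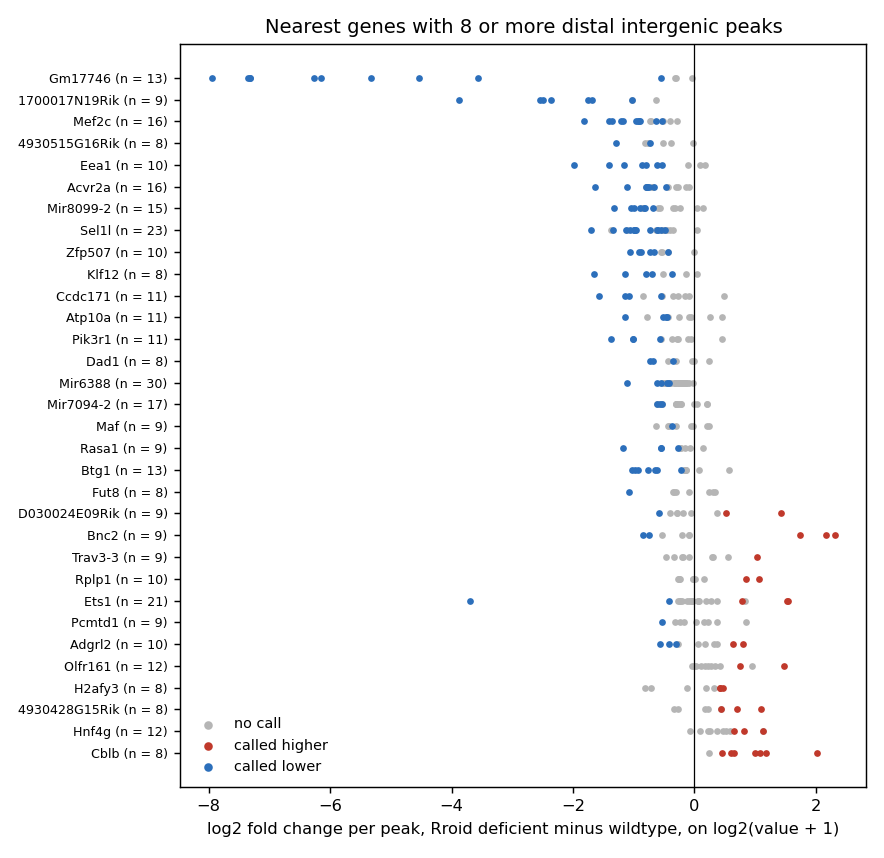
The log2 fold change (Rroid deficient minus wildtype) of every distal intergenic peak assigned to the 32 nearest genes with 8 or more such peaks, 1 point per peak, coloured by call and ordered by the median. Of the 32 genes, 21 have lower calls only, 7 have higher calls only and 4 have both, and the Gm17746 row holds the block.

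Some of these intervals are gene deserts only by the start sites that the authors' annotation used. In RefSeq gene order (GRCm38.p6, used for neighbours only), 91 of the 1115 peaks had a nearest gene with at least 3 antigen receptor gene segments among the 10 genes around it, 5 on either side. The immunoglobulin heavy chain neighbourhood on chromosome 12 held 57 of them. Among them was the run of 47 between Mir7094-2 and Mir6388, which held more peaks than any other run. Of the 57, 8 were lower and 0 higher, with sums of 9405, 9236 and 10478 in wildtype and 8405, 7615 and 8017 in Rroid-deficient libraries (82.5% of wildtype). The kappa light chain neighbourhood held 12 (3 lower, 0 higher), the T cell receptor alpha neighbourhood 17 (3 lower, 1 higher) and the gamma neighbourhood 5 (1 lower, 0 higher). Together these 91 had 15 lower (16.5%) and 1 higher call (1.10%). Over all peaks 12.1% were lower and 13.8% higher, and in the whole set 21.0% and 11.7%. Chromosome 12 as a whole held 14.2% of the set, against 4.34% of all peaks. B cell markers had no promoter peak, as given above, whereas Cd3g and Cd5 of the T cell markers did. Whether other cells had a part in the values of these neighbourhoods was not tested.

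Some rises stood in libraries 4 and 6 alone. All 6 peaks in satellite repeats and all 26 within 0.5 Mb of the 3 Mb of placeholder sequence at a chromosome start had 0 lower calls. The 4 satellite peaks that were called were higher, and at each the genotypes overlapped. The tallest, chr12:75904626-75905731 at Kcnh5, had 1164, 1128 and 1595 in wildtype, against 2823, 1264 and 2471 in Rroid-deficient libraries: libraries 4 and 6 were high and library 5 was within the wildtype range, as at the Lrrc4c peak. The 12 peaks near the start of chromosome 3 (Hnf4g) summed to 3102, 2758 and 3727 in wildtype, against 5846, 2482 and 4936 in Rroid-deficient libraries, with 3 called higher, and the 12 near the start of chromosome 16 (Olfr161) summed to 4389, 3753 and 5389.7 in wildtype, against 7591, 3178 and 6344 in Rroid-deficient libraries, with 2 called higher. Libraries 4 and 6 were also the shallowest, and the part of depth in these calls was not tested. The 5 peaks in ribosomal RNA repeats had 0 calls.

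Repeats of another kind were common. In all, 27.35% of the set lay in a named repeat, against 16.5% of all peaks and 23.7% of intergenic peaks up to 200 kb. Long terminal repeats, the remains of retroviruses, held 137 peaks, of which 40 (29.2%) were lower and 15 higher, while 14.8% of all peaks in long terminal repeats were lower. The MaLR family made up 79 of the 137, with 27 lower and 7 higher. The Eea1, Klf5 and tallest Mef2c and Tgfbr2 elements lie in this family. Outside named repeats, 161 of 810 (19.9%) were lower and 97 higher.

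Among 50 lymphocyte regulator genes listed because they lie beside wide noncoding intervals, 15 were the nearest gene of 75 peaks of the set. Of the 75, 18 were lower, 6 higher and 51 not called. In the whole set 21.0% were lower and 11.7% higher, and of all peaks 12.1% and 13.8%. The median of the 75 was -0.15 on the log2 scale, which is also the value of the whole set. By gene, 6 had falls only, 1 (Foxo1) had rises only, Ets1 had both and 7 had neither. At Tgfbr2, 4 of 6 were lower and 0 higher, and the sums were 1929, 1960.05 and 1771 in wildtype and 1122, 1208 and 1228 in Rroid-deficient libraries. Its tallest, chr9:116292616-116293886, went from 1180.2 ± 68.1 to 867 ± 79.3 (limma log2 fold change -0.45, SE 0.10, adjusted p = 0.00441), a call lost in 1 of 16 alternatives.

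At Cxcr4, a large fall and a taller peak that was not called lay in the same interval. The element chr1:130727121-130729710 had 1232, 1217 and 1045 in wildtype, against 1122, 1149.9 and 1146 in Rroid-deficient libraries and overlapped (limma adjusted p = 0.869), next to the fall at chr1:130704591-130706084 described above. At Gata3, the gene for a zinc finger factor of T cells and innate lymphoid cells, 0 of 4 peaks were called. The tallest, chr2:9515278-9517408, 284 kb downstream in the region where an enhancer active in T and NK cells is known, had 1573, 1359 and 1573 in wildtype, against 1431, 1482 and 1444 in Rroid-deficient libraries (limma adjusted p = 0.764; log2 fold change -0.05, SE 0.09). At Prdm1, which encodes the repressor Blimp-1, 0 of 5 were called.

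Of the regulators with 1 called peak, Maf had 1 of 9 lower (chr8:117921753-117922487, 522 ± 59.2 to 403 ± 22.3, limma adjusted p = 0.0403), Tox 1 of 3 (chr4:7133847-7134859, 169 ± 36.7 to 97.3 ± 25.5, limma adjusted p = 0.0154) and Runx2 its single peak (chr17:44599640-44601149, 269 ± 8.25 to 194 ± 17.7, limma adjusted p = 0.0269). Leaving out 1 library ended each of these calls: any library but 5 for Maf, wildtype library 3 or library 5 for Tox, and wildtype library 2 or 3 or library 4 or 5 for Runx2. Bach2, Foxp1, Ikzf2, Klf6 and Nr4a3, with 1 or 2 peaks each, had none called. At the 2 Bach2 peaks wildtype values were 23.4 to 42.0 normalized reads, a range where counting error is large.

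The peaks at the edges of the rule were small. The peak farthest from any start site, chr1:104524568-104525117, 1472 kb downstream of Gm20268, lay in a ribosomal RNA repeat and was not called. The second, chr1:48938123-48939334, 1415 kb upstream of Mir6350, rose from 103 ± 22.4 to 187 ± 34.7 (limma log2 fold change 0.85, SE 0.21, adjusted p = 0.00613). Just inside the limit, peaks of 1810053B23Rik, Tab2 and Mir6388 at 200022, 200117 and 200146 bp had wildtype means of 106, 78.5 and 104. Just outside, peaks of Maf, Inpp4b and Cdh26 at 199792, 199727 and 199651 bp had 116, 42.1 and 81.1. The lowest wildtype mean in the set was 12.8 normalized reads, 503 peaks were under 100 and 76 were over 1000.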

How the data were processed

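ATAC-seq was measured in NK cells from 3 wildtype and 3 Rroid deficient mouse spleen libraries. Coordinates are on mm9, per the submitters' processing notes, which name MACS2 2.1.0, DiffBind, HOMER and BWA beside bcl2fastq 2.16.0, R 3.1.1 and Trimmomatic 0.32. Their roles and settings are not given in the sources used here, and neither are read shifting, duplicate removal or the filtering of problem regions. The deposited table gives 1 normalized signal value per consensus peak and library, with the authors' annotation of class, nearest start site and repeat. The deposited signal values are whole reads divided by a factor per library: 100% of values came out whole within 0.01, so whole reads could be recovered. Columns show the genotype. Wildtype columns end in 1 to 3, and Rroid-deficient columns end in 4 to 6, which match no sample title, so these numbers only name libraries. The table had 0 further sample columns.

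Values were tested as log2(value + 1), a pseudocount of 1, with limma 3.58.1 (R 4.3.3, intensity trend) over all 51775 peaks, with Benjamini-Hochberg adjustment over all of them, no filter and calls at an adjusted p under 0.05. Fold changes on this scale understate changes of low peaks; fold values named as such are ratios of mean normalized reads. Errors after ± are SD over 3 libraries. Single values per library were compared with two-sided exact permutation tests, whose smallest p is 0.1. The fit was tested on simulated data before use. Summaries used Python 3.11.15 and pandas 2.3.3.

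Alternatives were edgeR 4.0.16 and DESeq2 1.42.0 on the recovered reads, other scalings, pseudocounts of 0.5 and 5, a filter at 30 in at least 3 libraries, other distance limits, autosomes only, peaks outside repeats, and each library left out. Leaving out libraries 4 and 6 together, the block, the antigen receptor neighbourhoods, the placeholder and satellite peaks, and the strongest peak was chosen after seeing the data. Named peaks were the 12 highest in wildtype, in total and per kb, the 10 largest falls and rises without overlap (at or above the median of the set, 1 per nearest gene), the tallest of the 6 nearest genes with the most peaks and of a list of 50 regulator genes, the 3 farthest, and 3 on either side of the limit. Peaks of the block, of satellites and of ribosomal RNA repeats were chosen after their values were seen, as were the runs described. The set and the lists were chosen with earlier results of these data known. RefSeq gene names matched 361 of 371 nearest genes. No peak sequences are given, since no genome of the files' build was used here.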

Additional observations from a re-analysis of the deposited data

How the results depend on the processing

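Among distal intergenic peaks, the excess of lower over higher calls kept its direction in all settings run with 2 or more Rroid-deficient libraries. edgeR's quasi-likelihood test on the recovered reads called 239 lower (21.4%) and 130 higher (11.7%), and 12.06% and 13.67% of all peaks. The shares of the set were 21.3% and 11.3% with DESeq2, 25.3% and 12.3% with loess normalization, and 17.4% and 12.7% after scaling to equal total reads. In the same order, the shares of all peaks were 11.9% and 13.5%, 12.7% and 14.9%, and 9.55% and 15.9%. Other scalings moved the median log2 fold change of all peaks by at most 0.059. Scaling to equal total reads gave that largest shift, and the median of the set was then -0.0915, against -0.150 as reported. With an adjusted p limit of 0.01, 13.5% were lower and 7.44% higher, against 6.31% and 8.43% of all peaks. Leaving out 1 library gave 7.80% to 12.2% lower and 10.1% to 14.5% higher over all peaks. In the set it gave 14.6% to 22.2% lower, 8.16% to 14.2% higher and median log2 fold changes of -0.201 to -0.0557. Without libraries 4 and 6, which leaves 1 Rroid-deficient library assumed to vary like wildtype, higher calls dropped to 5.11% and the median was -0.304.

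The difference in the share of signal, 0.00989 percentage points, had no stable sign. It was -0.0570 at a distance limit of 100 kb, -0.0519 without the strongest peak, -0.131 without libraries 4 and 6, and -0.0423 to 0.0805 with 1 library left out. As a median log2 value it was -0.142. No exact permutation p was below 0.3 in these settings.

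Of 56 named peaks with a call, 38 kept it in all settings and 18 lost it in at least 1, of which 7 lost it only without libraries 4 and 6. The satellite peaks at Nova1 and Kcnh5 turned from higher to log2 fold changes of -0.0346 and -0.0173 without libraries 4 and 6; the cause was not tested. No paired analysis was possible because the Rroid-deficient columns carry numbers that match no title. Low peaks are limited by depth: 503 of the 1115 had wildtype means under 100 normalized reads.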
